A study of Mus musculus with 2 samples.

Results

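The D-type cyclins, their kinases Cdk4 and Cdk6, and a set of Cdk inhibitors form the switch that lets a cell leave G1 and enter S phase, or hold it in G1. The genes described here are Ccnd1, Ccnd2, Ccnd3, Cdk4, Cdk6, Cdkn1b, Cdkn1c, Cdkn2a, Cdkn2b and Cdkn2c, chosen by name from the deposited gene table. They make up 10 of its 18067 genes, and each symbol had exactly 1 row. Bulk RNA-seq had been run on mouse small intestinal cells labelled as stem cells. The circBtnl1 wild-type group held 1 library and the circBtnl1 knockout group held 1 library. The labels give no strain, sex or age, no number of mice behind a library, and no method by which the cells were isolated. circBtnl1 is a circular RNA named after Btnl1, a butyrophilin-like gene. The label was checked against markers: epithelial genes were high in both libraries, and the stem cell, enterocyte and Paneth cell markers were mixed. All 5 goblet cell markers were abundant in both, at sums of 20285 TPM in wild-type and 10993 TPM in knockout cells. The 6 stem cell markers summed to 197 and 226 TPM. Of 6 stem cell markers, Prom1 (119.55 in wild-type and 150.2 TPM in knockout cells), Slc12a2 (55.18 and 62.08) and Smoc2 (15.54 and 7.72) were well above 1 TPM, whereas Ascl2 (3.88 and 4.83) and Lgr5 (3.13 and 1.55) were low and Olfm4 stood at 0.2 TPM and a listed 0. Of 6 enterocyte markers, Krt20, Fabp2 and Alpi were abundant, whereas Fabp1 (2.08 and 0.5 TPM), Sis (0.05 and 0.29 TPM) and Apoa1 (0.22 and 1.55 TPM) were low. Of 4 Paneth cell markers, Ang4 (583.05 and 2679.25 TPM) was abundant. Mmp7 (9.29 and 1.1 TPM), Defa24 (1.1 TPM and a listed 0) and Lyz1 (0.87 and 0.31 TPM) were low. The cell type and the tissue are therefore called by their label only.

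In this switch, D cyclins accumulate in response to growth signals and bind Cdk4 or Cdk6. The active kinase phosphorylates the retinoblastoma protein Rb and its relatives, which releases E2F factors that switch on genes of DNA replication. INK4 inhibitors bind Cdk4 and Cdk6 directly and keep cyclins off them, whereas Cip/Kip inhibitors bind whole cyclin and kinase complexes and mainly block Cdk2. In the intestine, dividing cells are confined to the crypts, and cells exit the cycle as they move up and differentiate.

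Cdk4 and Cdk6 were higher in the knockout library, by 2.64-fold and 3.47-fold, and they were the members past a 2-fold difference. The 3 D cyclins and the 4 inhibitors that could be measured lay within 2-fold. Among all genes that averaged at least 1 TPM, 23.1% were also at least 2-fold higher. Values are TPM, a share of all transcripts corrected for length, so that levels of different genes can be set side by side. With 1 library in each group there was no replicate error, no test was possible, and each difference is between 2 libraries, which in bulk RNA cannot tell fewer cells of a type from less RNA per cell.

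The windows around the start sites of these kinase genes are shown because Cdk4 and Cdk6 were the members past 2-fold. A further reason is that Cdk4 is a known target of the factor Myc in human cells. Each runs from 250 bases before to 50 bases after a RefSeq start site (GRCm38.p6, plus strand), at chr10:127063285-127063584 for Cdk4 and chr5:3343643-3343942 for Cdk6. The RefSeq bounds of Cdk6 begin at 3341004, so its window lies inside the gene, and the upstream end had no window. Capitals mark the E-box CACGTG, the letters that Myc and related factors are known to bind.
Cdk4: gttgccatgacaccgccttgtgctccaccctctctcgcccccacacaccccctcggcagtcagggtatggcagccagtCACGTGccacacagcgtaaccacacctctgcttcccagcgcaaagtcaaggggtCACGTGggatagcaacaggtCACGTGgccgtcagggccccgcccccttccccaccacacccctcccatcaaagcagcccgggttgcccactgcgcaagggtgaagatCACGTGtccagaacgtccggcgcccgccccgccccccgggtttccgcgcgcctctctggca
Cdk6: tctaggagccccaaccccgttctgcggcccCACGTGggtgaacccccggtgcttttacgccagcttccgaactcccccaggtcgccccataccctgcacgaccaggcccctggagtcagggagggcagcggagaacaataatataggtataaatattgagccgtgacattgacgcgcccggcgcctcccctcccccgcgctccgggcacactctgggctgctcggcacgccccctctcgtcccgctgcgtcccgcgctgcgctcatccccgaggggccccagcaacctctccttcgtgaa

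The Cdk4 window held 4 matches to CACGTG, whose first bases lie at -172, -118, -98 and -11 from the start site. The Cdk6 window held 1, at -220. These letters read the same on both strands, so each match was counted once. Of all 32851 RefSeq windows of this length, 7.15% held at least 1 match and 8 windows (0.0244%) held at least 4. The Cdk4 and Cdk6 windows were 67% and 66.7% G and C, against a mean of 53.8% over all windows. The shares over all windows are not matched for this. The other member windows, for Ccnd3, Cdkn1b, Cdkn2a, Cdkn2b and Cdkn2c, held no CACGTG, apart from 1 match in 1 of the Cdkn2c windows. An E2F motif, spelled TTTCCCGC or TTTGGCGC and searched on both strands, was in neither kinase window and in 1.56% of all windows, with 1 match among the members, in a Cdkn2a window. The GC box GGGCGG, on both strands, had 3 matches in the Cdk4 window and 0 in the Cdk6 window, against at least 1 in 35.7% of all windows. GC box matches can overlap one another, and E-box matches overlapped none of the other motifs' matches in the kinase windows. A match describes letters in a window and does not show that a factor was bound.

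Cdk4 (Entrez gene 12567, chromosome 10, 127063535 to 127067288, GRCm38) encodes a catalytic partner of the D cyclins. It had 113.58 TPM in wild-type cells against 299.74 TPM in knockout cells, and was the most abundant member in both. Cdk6 (Entrez gene 12571, chromosome 5, 3341004 to 3531008) encodes a close relative that is prominent in blood cells. It measured 4.38 TPM in wild-type cells and 15.19 TPM in knockout cells, an estimated 510 and 1500 reads if all came from its longest coding transcript, or 17 and 48 if from its shortest. The log2 ratios of knockout over wild-type, on the scale log2(TPM + 0.1), were 1.40 for Cdk4 and 1.77 for Cdk6.

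Differences of this size were common between these libraries. A gene is called measured here where its TPM averaged 1 or more over the libraries, which held for 12666 genes. Among these, 23.1% reached a 2-fold higher level in knockout cells and 5.25% a 2-fold lower one. Of the 9 measured members, 2 passed 2-fold upward and 0 downward, so the upward count was close to the share over all measured genes. The log2 ratio of Cdk4 was above that of 86.6% of measured genes, and that of Cdk6 above 90.9%. The median log2 ratio was 0.39 over the 9 members and 0.39 over all measured genes.

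**Figure D1:**
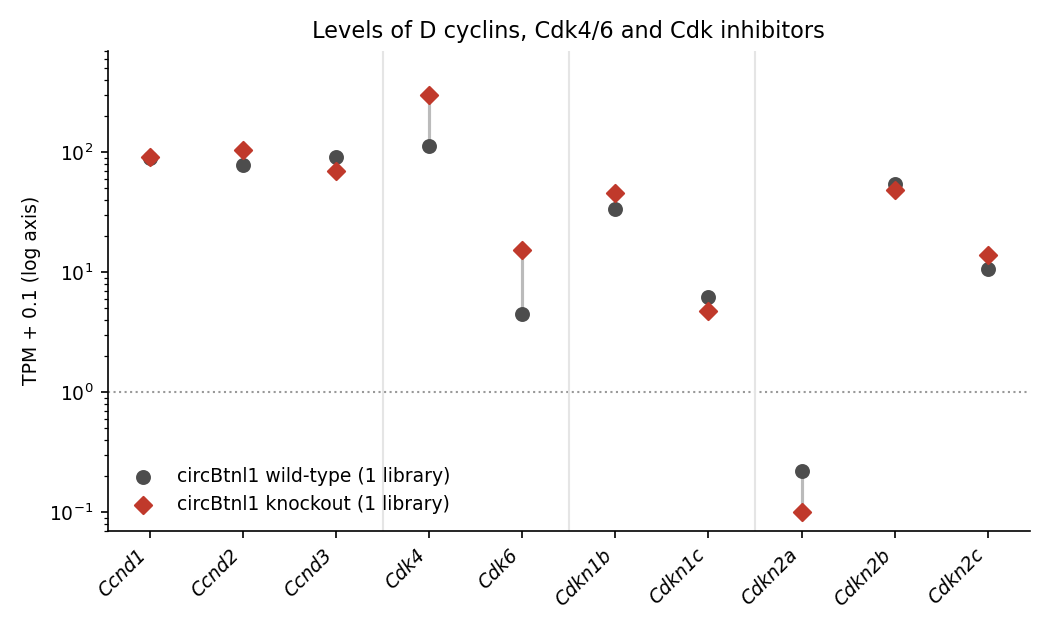
TPM + 0.1 (log axis) of each member in the wild-type library (grey circles) and the knockout library (red diamonds), with 1 library a group and no error bars. The dotted line is at 1; Cdk4 and Cdk6 show the widest gaps among measured members, Cdk4 from 113.58 to 299.74 TPM, while Cdkn2a lies near the bottom of the axis in both.

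Of all measured genes, 70.2% had a log2 ratio above 0, and the trimmed mean of all log2 ratios was 0.39. Relative to it, the log2 ratio was 1.01 for Cdk4 and 1.38 for Cdk6, so Cdk4 was just past 2-fold. Under that scaling 13.5% of measured genes passed 2-fold upward and 10.3% downward, against 2 and 0 of the 9 members. Ranks, which do not depend on scaling, gave the same direction: Cdk4 was above 88.5% of measured genes in wild-type and above 96.0% in the knockout library. Cdk6 was above 23.5% and 39.2%.

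**Figure D2:**
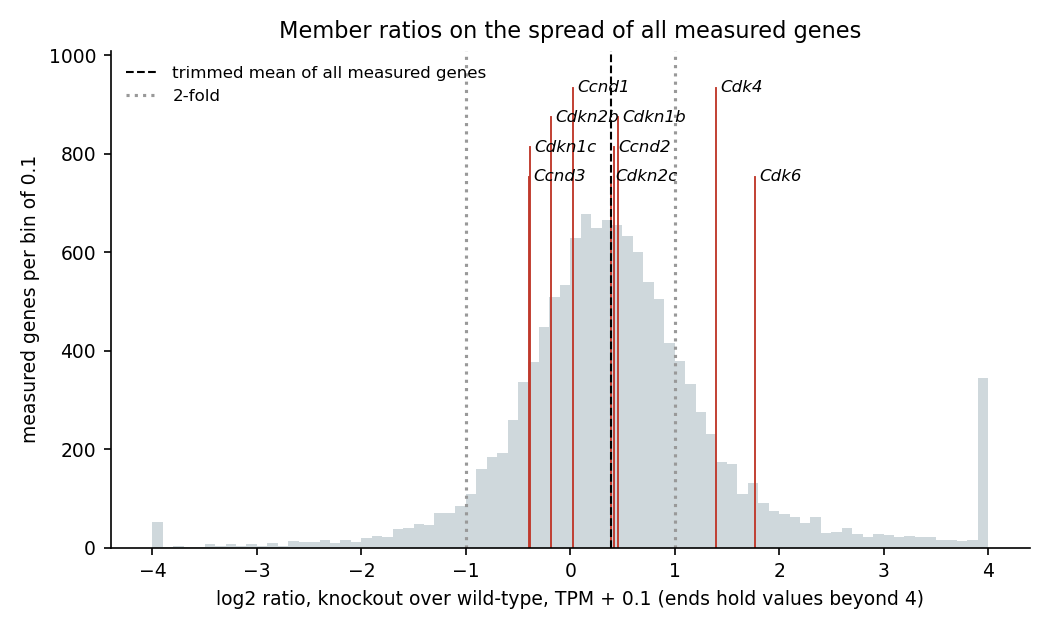
Number of measured genes in each bin of log2 ratio of knockout over wild-type (TPM + 0.1), with the 9 measured members as red lines, the trimmed mean of 0.39 as a dashed line and 2-fold as dotted lines. Only Cdk4 and Cdk6 of these members lie beyond a dotted line, and 5 of the 9 members lie below the dashed line.

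Cdk4 held nearly all of the kinase RNA in both libraries, 96.3% of the summed Cdk4 and Cdk6 TPM in wild-type and 95.2% in knockout cells. The end of Cdk4 overlaps 641 bases of Tspan31, a tetraspanin gene on the opposite strand. Tspan31 was at 147.2 TPM in wild-type and 159 TPM in knockout cells, a log2 ratio of 0.11. The sources used here do not say whether reads kept their strand, so reads from the shared stretch cannot be assigned with certainty. Annotated antisense genes also overlap Cdk6 (by 8013 and 1448 bases), Ccnd2 and Cdkn1c, and no values were listed for them. These are overlaps of gene bounds, introns included, and the same limit holds there. The genes nearest to Cdk6 in log2 TPM over both libraries were Diexf, at 4.32 and 15.67 TPM, Top1mt, at 4.67 and 15.31 TPM, and Spg20, at 4.69 and 15.23 TPM. Their distances to Cdk6 were 0.049, 0.091 and 0.097 on the log2 scale, and with 2 libraries such likeness is only a matter of level.

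The D cyclins were abundant, and their summed level was nearly equal, at 258 TPM in wild-type cells and 265 TPM in knockout cells. Ccnd1, the D cyclin known as a Wnt and growth factor target, measured 88.72 TPM in wild-type cells and 90.55 TPM in knockout cells. Ccnd2, which is likewise induced by growth signals, measured 78.35 TPM in wild-type cells and 105.08 TPM in knockout cells. Ccnd3, known to persist in differentiating muscle cells, measured 90.94 TPM in wild-type cells and 69.17 TPM in knockout cells. By RefSeq on GRCm38, Ccnd1 lies on chromosome 7 (144929931 to 144939831), Ccnd2 on chromosome 6 (127125162 to 127152188) and Ccnd3 on chromosome 17 (47505051 to 47599689). The wild-type library had the 3 genes at close levels with Ccnd3 first, and the knockout library had Ccnd2 first and Ccnd3 last.

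Within the summed D cyclin TPM, a measure that no scaling changes, Ccnd2 went from 30.4% in wild-type to 39.7% in the knockout library. Ccnd3 went from 35.2% to 26.1%, and Ccnd1 stood at 34.4% and 34.2%. The ratio of Ccnd2 to Ccnd3 was 0.862 in wild-type and 1.52 in knockout cells. The log2 ratio of knockout over wild-type was 0.42 for Ccnd2, 0.03 for Ccnd1 and -0.39 for Ccnd3. Relative to the trimmed mean these were 0.03, -0.36 and -0.79, so the direction of Ccnd1 flips with the scaling and Ccnd2 sits at the trimmed mean. The 3′ ends of Ccnd1 and Ccnd3 overlap genes on the opposite strand, Ccnd1 with LTO1 and Ccnd3 with Bysl, which stood at 15.86 against 13.91 TPM and at 14.93 against 25.94 TPM.

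**Figure D3:**
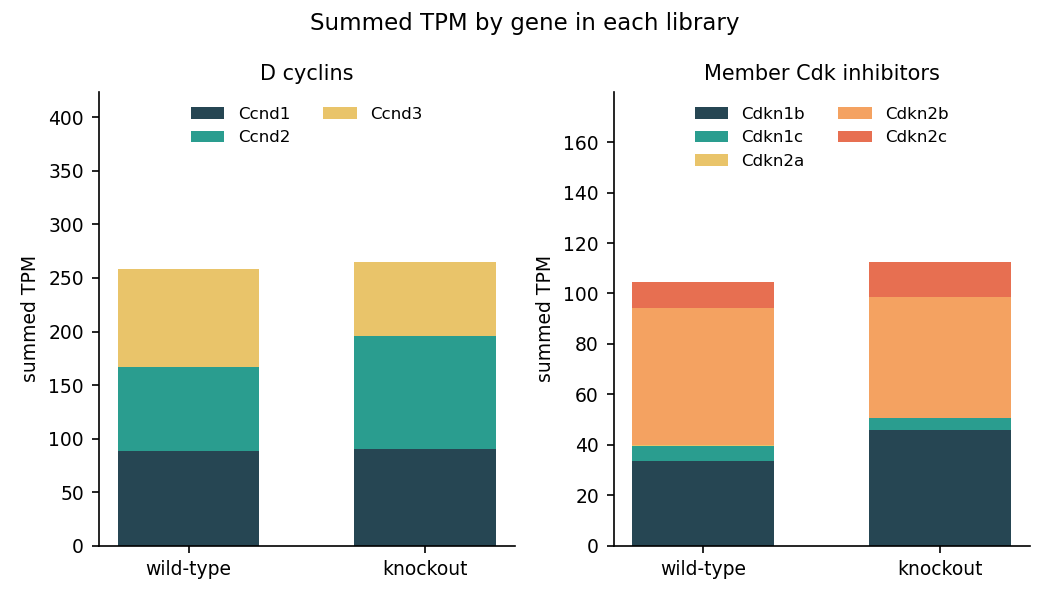
Summed TPM of the D cyclins (left) and of the 5 member inhibitors (right) in each library, stacked by gene, from 0. The totals are close between libraries, at 258 and 265 TPM and at 105 and 112 TPM, while the Ccnd3 and Cdkn2b segments are smaller and the Ccnd2 and Cdkn1b segments larger in the knockout library.

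The 5 inhibitor genes together held 105 TPM in wild-type cells and 112 TPM in knockout cells. Cdkn2b and Cdkn1b made up most of that sum in both. Set against it, summed Cdk4 and Cdk6 RNA was 1.13 times the inhibitor RNA in wild-type and 2.80 times in knockout cells. The same kinase sum was 0.457 times the D cyclin sum in wild-type and 1.19 times in knockout cells. D cyclin RNA was 2.47 times the inhibitor RNA in wild-type and 2.36 times in knockout cells. With Cdkn1a and Cdkn2d, which are no members, counted in, kinase RNA was 0.141 times the inhibitor RNA in wild-type and 0.519 times in knockout cells, and D cyclin RNA 0.309 and 0.436 times. These RNA ratios say nothing of protein amounts.

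Of the Cip/Kip members, Cdkn1b encodes p27, which restrains Cdk2 in resting cells and is destroyed as cells enter S phase. It had 33.47 TPM in wild-type cells against 46.03 TPM in knockout cells, a log2 ratio of 0.46, or 0.07 relative to the trimmed mean. Cdkn1c encodes p57, an imprinted inhibitor known for holding stem cells of several tissues in quiescence. It measured 6.13 TPM in wild-type cells and 4.67 TPM in knockout cells, a log2 ratio of -0.39, or -0.78 relative to the trimmed mean. Cdkn1b was 5.46 times as abundant as Cdkn1c in wild-type and 9.86 times in knockout cells. Cdkn1c had an estimated 120 and 75 reads on its longest coding transcript, and 40 and 26 on its shortest.

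Cdkn1a, the p53 target p21 that completes the Cip/Kip family, was more abundant than any member, at 6.28 times Cdk4 in wild-type and 1.59 times in knockout cells. It was at 712.95 TPM in wild-type and 477.34 TPM in knockout cells, a log2 ratio of -0.58, or -0.97 relative to the trimmed mean. Its level was 6.81 times the summed TPM of the 5 member inhibitors in wild-type and 4.25 times in knockout cells. Cdkn1b lies on chromosome 6 (134920401 to 134925525) and Cdkn1c on chromosome 7 (143458339 to 143461059), 1.47 Mb from Ccnd1. Of the 3 Cip/Kip genes, 0 passed 2-fold in either direction, like 71.7% of all measured genes.

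Of 7 measured imprinted neighbours of Cdkn1c on chromosome 7, 0 passed 2-fold in either direction, where 71.7% of all measured genes lay within 2-fold. Their median log2 ratio was 0.31, near the 0.39 of all genes. Slc22a18, a transporter-like gene, was the most abundant and the lowest by ratio, at 252.66 TPM in wild-type cells and 214.15 TPM in knockout cells. Nap1l4, a nucleosome assembly gene, had the highest ratio, at 46.17 and 64.01 TPM.

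Of the INK4 members, Cdkn2b encodes p15, an inhibitor known to be induced by TGF-beta. It had 54.48 TPM in wild-type cells against 47.97 TPM in knockout cells, a log2 ratio of -0.18, or -0.58 relative to the trimmed mean. Cdkn2c encodes p18, and measured 10.46 TPM in wild-type cells and 13.75 TPM in knockout cells, a log2 ratio of 0.39. Relative to the trimmed mean the log2 ratio of Cdkn2c was -0.00066, so its direction flips with the scaling. Cdkn2d, the remaining INK4 gene, which encodes p19Ink4d, stood at 18.46 and 17.53 TPM. Cdkn2b was thus the most abundant INK4 gene in both libraries, at 5.21 times Cdkn2c in wild-type and 3.49 times in knockout cells.

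Cdkn2a was the exception to these levels. The locus encodes p16Ink4a and p19Arf from alternative first exons, and gene-level values do not separate them. It stood at 0.12 TPM in the wild-type library and was listed at 0 in the knockout library. At the estimated depth the wild-type value is about 1.1 reads, and 3 reads would be 0.331 TPM in wild-type cells and 0.397 TPM in knockout cells, so both lie under that limit and no fold is given. Cdkn2a (89274473 to 89294619) and Cdkn2b (89306289 to 89311032) are 11.7 kb apart on chromosome 4, which also carries Cdkn2c (109660876 to 109666756), yet Cdkn2a and Cdkn2b differed widely in level. Cdkn2b was above 77.5% of measured genes in wild-type and above 71.5% in the knockout library.

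**Figure D4:**
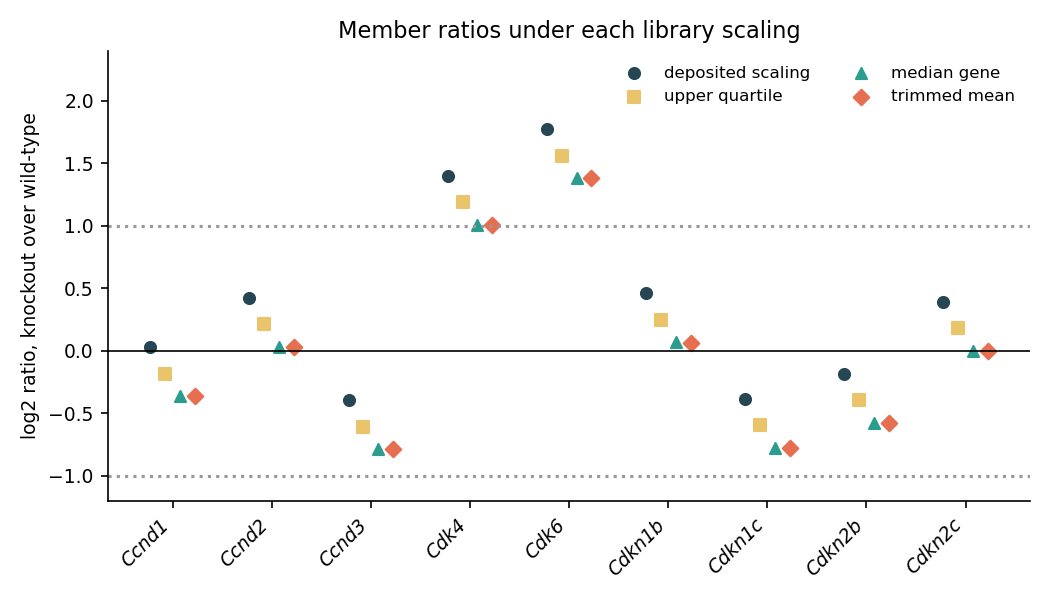
log2 ratio of knockout over wild-type for the 9 measured members under the deposited scaling and under 3 others (upper quartile, median gene, trimmed mean), with dotted lines at 2-fold. Cdk4 and Cdk6 stay at or above the upper dotted line, Cdk4 at 1.01 under the trimmed mean, and Ccnd1 and Cdkn2c cross 0.

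The order of levels was Cdk4, Ccnd3, Ccnd1, Ccnd2, Cdkn2b, Cdkn1b, Cdkn2c, Cdkn1c, Cdk6 and Cdkn2a in the wild-type library. In the knockout library it was Cdk4, Ccnd2, Ccnd1, Ccnd3, Cdkn2b, Cdkn1b, Cdk6, Cdkn2c, Cdkn1c and Cdkn2a. Cdk6 thus passed both Cdkn2c and Cdkn1c, and Ccnd2 and Ccnd3 changed places. Whether neighbours in these orders differ beyond the spread between mice was not testable with 1 library a group.

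Downstream of Cdk4 and Cdk6, the pocket proteins, E2F factors and DREAM subunits were mostly a little higher in knockout cells. Here 18 genes were measured, with a median log2 ratio of 0.76. Of these, 3 passed 2-fold upward (16.7%, against 23.1% of all measured genes) and 0 downward (5.25% of all). Relative to the trimmed mean the median was 0.36, and the direction of 6 genes (Rb1, Rbl2, E2f3, E2f4, E2f8 and Lin37) flips. Under that scaling 1 gene was at least 2-fold higher and 1 lower, against 13.5% and 10.3% of all measured genes. Lin52, a DREAM subunit, had the highest ratio, at 3.23 TPM in wild-type cells and 9.15 TPM in knockout cells. E2f2, an activating E2F, had the lowest, at 45.02 TPM in wild-type cells and 24.16 TPM in knockout cells. E2f4, a repressive E2F that pairs with the pocket proteins, was the most abundant, at 105.41 and 134.43 TPM.

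Target genes of E2F, which serve DNA replication, showed a similar picture. Of 22 measured, 4 were at least 2-fold higher (18.2%, against 23.1% of all measured genes) and 0 lower (5.25% of all). The median log2 ratio was 0.70, or 0.31 relative to the trimmed mean. Under that scaling 2 passed 2-fold upward (9.09%, against 13.5% of all) and 0 downward (10.3% of all). The direction of 3 genes flips. Pola1, the catalytic subunit of DNA polymerase alpha, had the highest ratio, at 1.94 TPM in wild-type cells and 9.46 TPM in knockout cells. Pcna, the sliding clamp, was the most abundant, at 102.13 and 245.04 TPM. Mybl2, a cell cycle factor, had the lowest ratio, at 14.46 and 14.19 TPM.

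Cyclin E, Cdk2 and the genes that activate Cdks act beside and after the D cyclins. Of 9 measured, 3 were at least 2-fold higher (33.3%, against 23.1% of all measured genes) and 0 lower (5.25% of all). The median log2 ratio was 0.81, or 0.42 relative to the trimmed mean. Under that scaling 2 passed 2-fold upward (22.2%, against 13.5% of all) and 0 downward (10.3% of all). The direction of 2 genes flips. Ccne2, a partner of Cdk2, had the highest ratio, at 2.35 TPM in wild-type cells and 9.1 TPM in knockout cells. Ccna2, the S phase cyclin, had the lowest, at 84.73 and 79.38 TPM. Cdc37, which with Hsp90 folds Cdk4, was the most abundant and was at 136.71 TPM in wild-type and 128.17 TPM in knockout cells, while Cdk4 itself differed 2.64-fold.

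Of 13 measured genes that destroy D cyclins and p27, 2 were at least 2-fold higher (15.4%, against 23.1% of all measured genes) and 0 lower (5.25% of all). The median log2 ratio was 0.40, or 0.0040 relative to the trimmed mean. Under that scaling 2 passed 2-fold upward (15.4%, against 13.5% of all) and 0 downward (10.3% of all). The direction of 5 genes flips. Skp2, the ubiquitin ligase subunit that recognises p27, had the highest ratio, at 3.09 TPM in wild-type cells and 9.59 TPM in knockout cells. Its cofactor Cks1b was the other gene past 2-fold, at 31.24 and 90.9 TPM, and is named here after its value was seen. Ambra1, which directs the breakdown of D cyclins, had the lowest ratio, at 27.25 and 26.27 TPM. Ddb1, an adaptor of Cul4 ligases, was the most abundant, at 171.17 and 183.21 TPM.

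Regulators known to set the transcription of these cyclins and inhibitors spread most widely. Of 19 measured, 8 were at least 2-fold higher (42.1%, against 23.1% of all measured genes) and 0 lower (5.25% of all), with a median log2 ratio of 0.63. Relative to the trimmed mean, 5 passed 2-fold upward (26.3%, against 13.5% of all) and 2 downward (10.3% of all). Ets1 had the highest ratio, at 1.77 TPM in wild-type cells and 21.02 TPM in knockout cells. Ets1 is known in human cells as an activator of Cdkn2a, which was near 0 in both libraries. Smad4, the shared effector of TGF-beta and BMP signals, had the lowest, at 82.86 and 47.55 TPM. Id1, a BMP target, was the most abundant, at 584.09 and 377.5 TPM.

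Further genes of this list were named after their values were seen, because of their known ties to the members. Myc had 22.73 TPM in wild-type cells against 135.5 TPM in knockout cells, a log2 ratio of 2.57, beside the E-boxes of the Cdk4 window printed above, whose part in the Cdk4 difference was not tested. Bmi1, a Polycomb subunit known to repress Cdkn2a, stood at 5.7 and 34.38 TPM. Ezh2, the Polycomb methyltransferase, stood at 15.18 and 30.92 TPM. Foxo3, an activator of Cdkn1b, stood at 39.87 and 27.03 TPM.

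**Figure D5:**
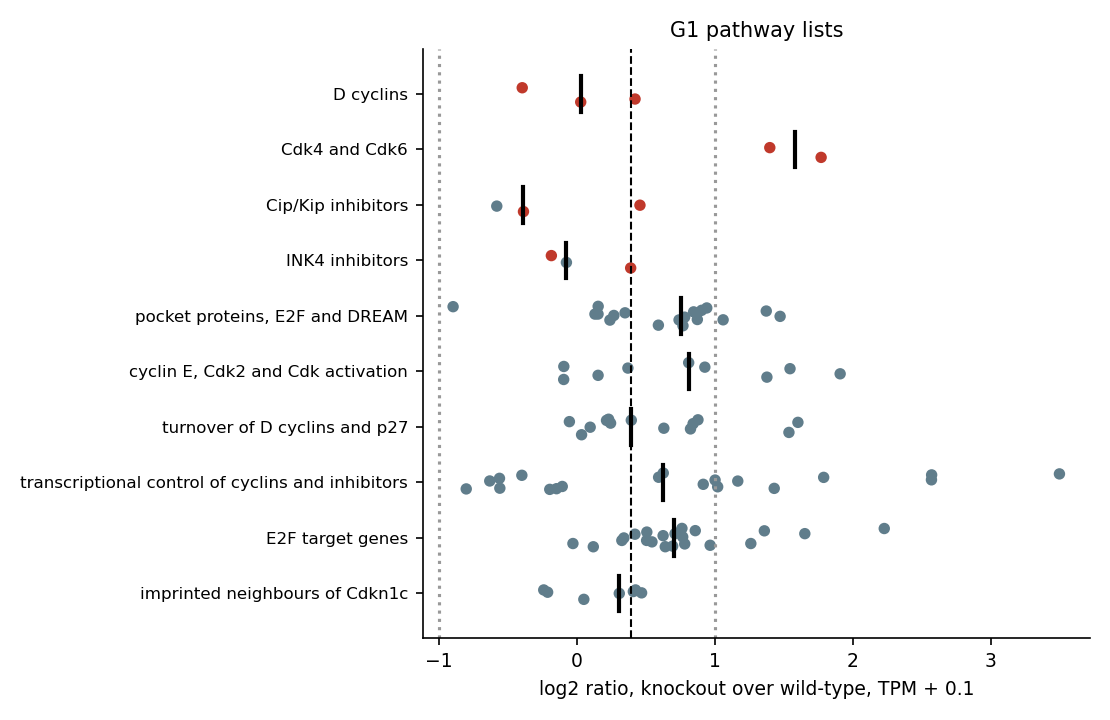
log2 ratio of knockout over wild-type (TPM + 0.1) of each measured gene in the G1 lists, with members in red, other genes in blue-grey, list medians as black bars, the median of all measured genes as a dashed line and 2-fold as dotted lines. Most list medians lie within 0.5 of the dashed line at 0.39. No gene in these lists lies at or below -1, where 5.25% of all measured genes do.

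Markers of differentiated and of other cell types also differed between the libraries. Goblet cell markers summed to 20285 TPM in wild-type and 10993 TPM in knockout cells, with 3 of 5 at least 2-fold lower and 0 higher. Of 4 measured enterocyte markers, 2 were at least 2-fold lower and 1 higher, with Krt20 at 2065 and 919 TPM and Fabp2 at 135 and 757 TPM. Of 5 enteroendocrine markers, 3 were at least 2-fold higher and 1 lower, at sums of 321 and 322 TPM. Of 4 Paneth cell markers 2 were measured, with Ang4 at 583 and 2679 TPM and Mmp7 at 9.29 and 1.1 TPM. Of 5 measured stem cell markers 1, Smoc2, was at least 2-fold lower and 0 higher, at sums of 197 and 226 TPM. Lgr5 was just short of that limit, at 3.13 and 1.55 TPM and a log2 ratio of -0.97. The log2 ratios of the other 3 were above 0, among them Prom1, which held most of the sum at 119.55 and 150.2 TPM. Of 5 tuft cell markers 1 was lower and 0 higher, at sums of 20.4 and 15.7 TPM. The epithelial markers Epcam, Cdh1, Krt8 and Vil1 summed to 12724 and 7166 TPM. Relative to the trimmed mean, the lower counts became 4 for goblet and 2 for stem cell markers, and the higher count for enteroendocrine markers became 1. The shares over all measured genes were then 13.5% higher and 10.3% lower.

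Outside the epithelium, 1 of 5 measured T and NK cell markers was at least 2-fold lower and 0 higher. For myeloid markers 2 of 5 were lower and 0 higher. The shares over all measured genes were again 5.25% lower and 23.1% higher. The summed TPM went from 41.6 to 17.3 for T and NK cell markers, from 25.3 to 12.1 for myeloid markers, and from 276 to 11.3 for the 4 hemoglobin genes, each at least 2-fold lower. Of 7 measured fibroblast and muscle markers, 3 were at least 2-fold higher and 2 lower. Their summed TPM went from 39.6 to 125, or from 35.9 to 60.5 without Col1a2, which alone went from 3.76 to 64.39 TPM, and 0 of them were listed at 0. Endothelial markers summed to 1.91 and 2.32 TPM, and B and plasma cell markers to 2.4 and 0.88 TPM. Relative to the trimmed mean, 5 of 5 measured T and NK cell markers were at least 2-fold lower. Of the 7 fibroblast and muscle markers, 2 were then higher and 3 lower, against 13.5% and 10.3% of all measured genes. The part of these shifts in the member values was not tested.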

How the data were processed

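The authors deposited 1 gene table for both libraries, with FPKM values (fragments per kilobase, scaled to mapped fragments) and TPM values, per the file headers. The submitters' processing notes name mm10, Bowtie2, RSEM and DESeq2, without version, role or order. Per the labels' protocols, libraries were made from total RNA with an MGIEasy kit. The table held 18068 lines, of which 1 had no values. All 10 members matched RefSeq genes of GRCm38.p6 by Entrez identifier, and 7 matched a promoter window (Ccnd1, Ccnd2 and Cdkn1c did not).

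Ratios are differences of log2(TPM + 0.1), knockout minus wild-type, which understates differences of low genes. A gene counted as measured where its TPM averaged 1 or more. A 2-fold difference is a description, with no test or p-value. The trimmed mean left out 30% of ratios and 5% of levels at each end. Calculations used Python 3.11.15, pandas 2.3.3 and numpy 2.4.6, and the ratio and scaling steps were tested on simulated data.

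Depth was estimated from low FPKM values, which were taken to be steps of 1 read. The best fit was 21000000 reads in the wild-type library (range 19250000 to 23500000, by the offset taken off transcript length) and 16750000 in the knockout library (15750000 to 20250000). There 67.4% of 135 and 65.5% of 142 low genes lay within 0.15 of a whole read. Chance gives 30% for 1 depth fixed in advance. The best fit was picked among many depths and offsets on the same genes, so its own chance level is higher and was not computed. Read numbers are therefore approximate, no interval was computed, and such numbers cover counting error only.

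The members, lists and motifs were chosen with earlier results of these data known. Named genes were all members, Cdkn1a and Cdkn2d, the highest, lowest and most abundant measured gene of each other list, and the 3 genes of at least 5 TPM nearest to the member with the largest ratio. Beyond this rule, Myc, Bmi1, Ezh2, Foxo3, Cks1b and the 6 genes of the pocket protein list whose direction flips were named after their values were seen. So were the overlapping genes Tspan31, LTO1 and Bysl, and single cell type markers. Alternatives covered the pseudocount, the floor, the unit, 3 scalings, the threshold and the summary.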

Additional observations from a re-analysis of the deposited data

How the results depend on the processing

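The count of 2 members at least 2-fold higher, Cdk4 and Cdk6, held under pseudocounts of 0.01 and 1, with no floor, with a floor of 5 TPM, from FPKM, under the 3 other scalings and at a 1.5-fold threshold. The log2 ratio of Cdk4 ranged from 1.01 to 1.46 and that of Cdk6 from 1.38 to 1.80. With no floor, 1 member, Cdkn2a, counted as at least 2-fold lower, on about 1.1 reads against 0, and the members' median became 0.21. That median was 0.00060 under median gene scaling, -0.00066 under trimmed mean scaling and 0.18 under upper quartile scaling. Trimmed mean scaling gave log2 ratios of -0.35 for the summed D cyclins and -0.29 for the summed inhibitors, against 0.04 and 0.10 as deposited. Of 72 member ratios under alternatives, 44 moved by under 0.1 and 28 by more. A floor only filters genes and cannot change a ratio, and FPKM differs from TPM by 1 factor per library. Part of the 44 was therefore fixed in advance and is no measure of stability. Each of the 3 other scalings takes 1 constant off every ratio: 0.391 for median gene, 0.392 for trimmed mean and 0.212 for upper quartile. Every member ratio therefore moved by more than 0.1 under each, which says nothing of single members. Signs turned in 1 member under median gene scaling and under upper quartile scaling (Ccnd1), and in 2 under trimmed mean scaling (Ccnd1 and Cdkn2c). No paired analysis was possible because each group had 1 library, and no library could be left out for the same reason.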
